A study of Mus musculus with 16 samples.

Results

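The smooth muscle and myofibroblast contractile genes are 8 genes chosen by name: Acta2, Tagln, Myh11, Cnn1, Myl9, Tpm2, Lmod1 and Actg2. Of the 46078 genes in the table, 16101 had enough counts to be tested, and all 8 contractile genes were among them. They were followed in RNA of tumours grown from B16F10-GP cells, a line of the mouse melanoma B16F10, in 16 libraries, 4 in each of 4 groups. The labels do not explain the suffix GP.

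The cells had been implanted with 25% matrigel in right/left flanks, as the labels put it, of female C57BL/6 mice that were 6 to 8 weeks old, so every group shared the graft and the host strain. The untreated group is labelled as untreated, while the protocol speaks of a vehicle control. The 5 Gy group received 1 dose of 5 Gy X-rays to the right flank at day 10, when tumours could be felt. The QH-II-066 group received that compound, which the title of the series links to enhancement of GABA-A receptors, at 10 mg/kg into the peritoneum, starting at day 10 and repeated daily over 7 days. Mice of the combined group, 5 Gy + QH-II-066, were irradiated in the morning of day 10 and given its first drug dose that evening. The labels do not say which flank was profiled, when tumours were taken or whether each library came from its own mouse. All p-values therefore measure the spread between these libraries, which may be partly technical.

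In smooth muscle, force comes from myosin filaments that pull on actin filaments, and phosphorylation of the regulatory light chain of myosin switches the motor on. Most genes of this apparatus are transcribed under serum response factor (SRF), which binds DNA at CArG boxes and acts with myocardin or the related actin-sensing cofactors. In tumours the same genes mark smooth muscle cells and pericytes of blood vessels and myofibroblasts, the contractile fibroblasts that lay down and tense matrix. These libraries were made from whole tumours, so more cells of such a type and more RNA per cell cannot be told apart.

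The members lie on separate chromosomes, with the exception of Tagln and Cnn1. In mm10, Acta2 (ENSMUSG00000035783) spans chr19:34241090-34255336 on the minus strand and Actg2 (ENSMUSG00000059430) spans chr6:83512905-83536265 on the minus strand. Tagln (ENSMUSG00000032085, chr9:45929628-45936058, minus) and Cnn1 (ENSMUSG00000001349, chr9:22099281-22109630, plus) share chromosome 9. Myh11 (ENSMUSG00000018830) covers chr16:14194527-14291408 on the minus strand, and Myl9 (ENSMUSG00000067818) covers chr2:156775420-156781658 on the plus strand. Tpm2 (ENSMUSG00000028464, chr4:43514711-43523765, minus) and Lmod1 (ENSMUSG00000048096, chr1:135324807-135368065, plus) complete the group. Counts were taken over their exons, whose summed length ran from 1162 bases in Myl9 to 6632 in Myh11.

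The promoters of Acta2 and Myl9 are shown because these members gave the most counts per length in untreated tumours and hold matches to the CArG box. This is the SRF site that many contractile genes share. Each is the 250 bases before the RefSeq start on GRCm38.p6, read 5′ to 3′ on the gene's own strand, with CArG matches in capitals. The Acta2 stretch is chr19:34255374-34255623 on the minus strand and the Myl9 stretch is chr2:156775214-156775463 on the plus strand.
Acta2: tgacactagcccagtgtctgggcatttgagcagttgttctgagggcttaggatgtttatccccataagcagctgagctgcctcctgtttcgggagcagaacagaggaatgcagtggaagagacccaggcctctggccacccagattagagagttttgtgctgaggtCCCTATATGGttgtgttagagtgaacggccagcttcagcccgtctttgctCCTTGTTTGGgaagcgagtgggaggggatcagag
Myl9: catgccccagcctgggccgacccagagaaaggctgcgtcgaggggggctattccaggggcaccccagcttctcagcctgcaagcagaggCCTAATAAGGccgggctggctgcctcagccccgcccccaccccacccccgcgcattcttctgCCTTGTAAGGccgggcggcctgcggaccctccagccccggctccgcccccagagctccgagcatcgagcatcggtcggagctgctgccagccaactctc
The CArG box is 10 bases long with a core of 6 bases that are A or T. The search covered both strands and 2 forms that exclude each other, the CArG box itself and a near form with 1 core base C or G. Acta2 held near matches only, CCCTATATGG at 84 to 75 bases and CCTTGTTTGG at 34 to 25 bases before the start. Myl9 held the full box CCTAATAAGG at 161 to 152 bases and the near form CCTTGTAAGG at 99 to 90 bases before the start. Of 32851 RefSeq windows of 300 bases, 250 before the start and 50 after it, 1.63% held the full box, 8.50% the near form and 9.98% either. The windows of Cnn1, Tpm2 and Lmod1 held neither form, which says only that these letters are not in the window. In all, 5 members matched the promoter table; Tagln, Myh11 and Actg2 are named only.

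Library totals ranged from 6994198 counts in the fourth combined library to 40799942 in the first. Replicates of a group correlated between 0.899 and 0.985 in log2 CPM (counts scaled to the size and composition of each library). A gene with 0 counts could have reached 0.0811 CPM in the deepest library and 0.446 CPM in the shallowest, by a limit of 3 counts that covers counting error only. Pigment cell genes summed to between 16259 and 27306 CPM per library, so all 16 libraries carried the melanoma's defining transcripts. Some libraries also held transcripts of neighbouring host tissue. A score of 12 skin epithelium genes, the mean of their log2 CPM, was above 3 in 5 libraries, 5 Gy replicates 2 and 4 and combined replicates 2, 3 and 4. A score of 13 tested skeletal muscle genes was above 4 in 5 libraries, 5 Gy replicates 2 and 4, QH-II-066 replicate 4 and combined replicates 3 and 4. Genes called for 5 Gy are given below with and without these libraries. Both sets hold 5 Gy replicates 2 and 4 and no untreated library. Leaving out either set therefore keeps the same libraries for 5 Gy against untreated tumours.

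In untreated tumours the contractile genes differed widely in level. The RNA was prepared by transcriptome capture, and how evenly it took up different genes was not tested. Per kilobase of exon, Myl9 averaged 17.2 ± 3.84 CPM (SD, n = 4), Acta2 11.7 ± 4.25 and Tagln 7.77 ± 1.05. Tpm2 at 3.01 ± 1.25 and Actg2 at 2.36 ± 1.80 followed, and Myh11 at 0.344 ± 0.124, Lmod1 at 0.180 ± 0.0890 and Cnn1 at 0.0699 ± 0.0238 came last. The genes at the low end, Myh11, Lmod1 and Cnn1, encode the myosin heavy chain, an actin nucleator and a calponin that mark mature smooth muscle. Cnn1 rested on 3 to 6 counts per untreated library and passed the filter on low counts through treated libraries. No library had 0 counts for any of the 8 genes.

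Acta2 and Tagln were higher in 5 Gy tumours than in untreated ones, by 2.27-fold and 2.35-fold. They were the 2 of 8 contractile genes that passed the test, beside 1.25% of all tested genes called higher in that comparison. In QH-II-066 tumours and in combined tumours against untreated ones, 0 of 8 passed, beside 0% of all tested genes in each. Tagln was the member that was higher in all 12 treated libraries than in any of the 4 untreated ones.

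**Figure D1:**
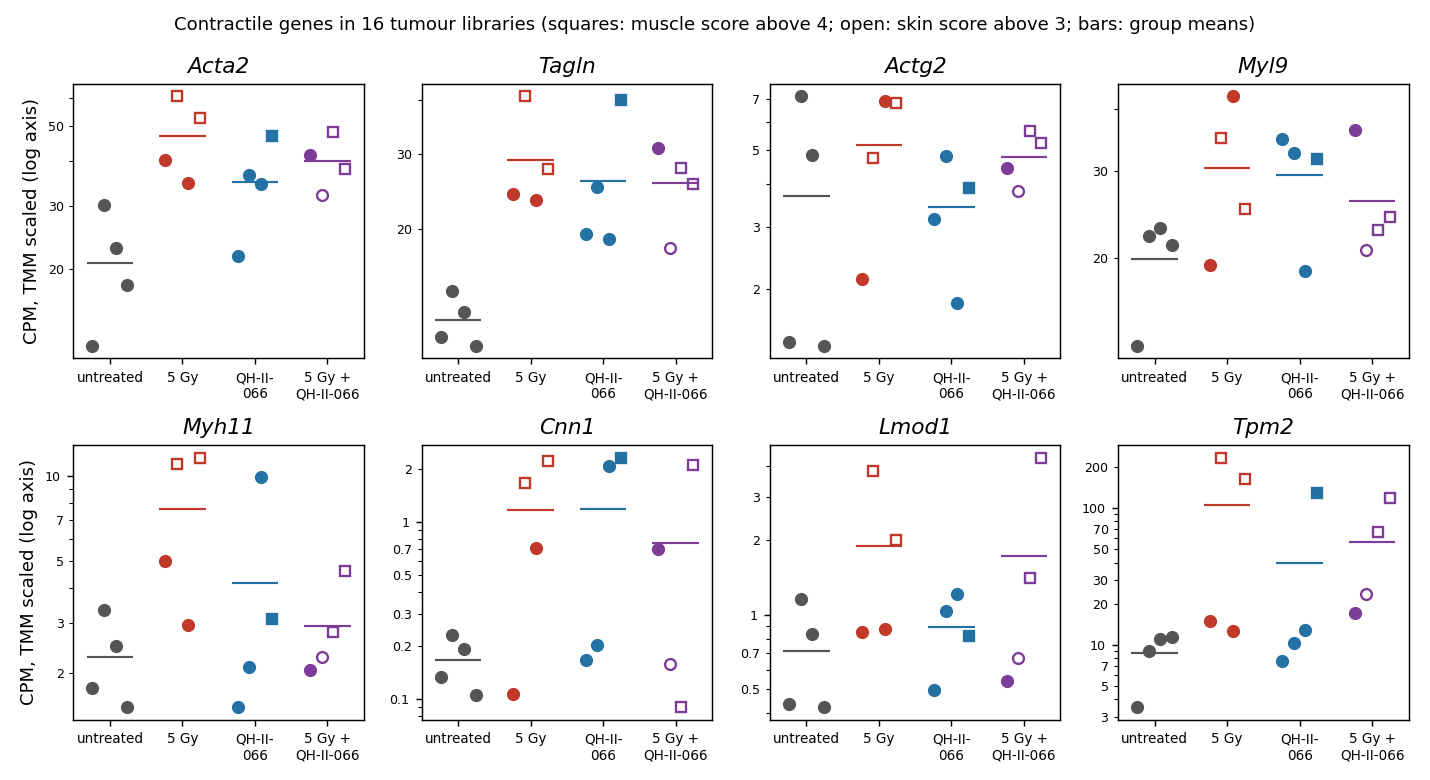
Level of each contractile gene in the 16 libraries, in CPM on a log axis, by group; points are libraries, bars are group means, squares mark a skeletal muscle score above 4 and open symbols a skin score above 3. Tagln lies at 10.7 to 14.4 CPM in untreated libraries and at 18.1 CPM or more in the other 12, whereas the high Tpm2 values of 66.8 CPM and above all lie in squares.

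Acta2 encodes smooth muscle alpha-actin, the actin isoform used most often to recognise myofibroblasts and vessel walls. Its untreated libraries held 12.2, 30.0, 22.8 and 18.01 CPM, and its 5 Gy libraries 40.3, 60.8, 34.7 and 52.8 CPM. The lowest 5 Gy library lay above the highest untreated one. The log2 fold change was 1.18 ± 0.27 (SE; edgeR quasi-likelihood test, Benjamini-Hochberg adjusted p = 0.0470). QH-II-066 libraries held 21.7, 36.5, 34.5 and 47.1 CPM, of which the first lay inside the untreated range, and combined libraries held 41.6, 32.1, 48.1 and 38.1 CPM, all above it. Against untreated tumours the log2 difference was 0.75 ± 0.27 for QH-II-066 (edgeR adjusted p = 0.546) and 0.95 ± 0.27 for the combination (edgeR adjusted p = 0.298). Group means ordered untreated, QH-II-066, combined, 5 Gy, at 20.8 ± 7.57, 34.9 ± 10.4, 40.0 ± 6.68 and 47.1 ± 11.8 CPM (SD, n = 4). Among neighbours in that order, untreated and QH-II-066 differed by more than the larger SD and the others did not.

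Actg2 encodes smooth muscle gamma-actin, the isoform typical of gut and other visceral muscle. Its untreated libraries were themselves spread over 1.403, 7.12, 4.83 and 1.37 CPM, and its 5 Gy libraries held 2.14, 4.73, 6.89 and 6.82 CPM. All 4 groups overlapped, with 1.82 to 4.81 CPM under the drug and 3.80 to 5.67 CPM under both treatments. The log2 difference for 5 Gy was 0.48 ± 0.50 (edgeR adjusted p = 0.696), so the smooth muscle actins were not both called.

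Among all actin counts, Acta2 was a small part: a median of 0.321% in untreated tumours (0.221% to 0.534%), 0.797% after 5 Gy, 0.613% with the drug and 0.572% with both. The cytoplasmic actins Actb and Actg1, which every cell uses, together made up a median of 99.4% of actin counts in untreated tumours and 93.5% after 5 Gy, where the lowest library had 84.9%. They had log2 differences for 5 Gy of -0.08 ± 0.18 and 0.00 ± 0.14 (edgeR adjusted p = 0.852 and 0.994). Acta1, the skeletal muscle actin, averaged 14.01 ± 15.4 CPM in untreated and 383 ± 436 CPM in 5 Gy tumours (SD, n = 4), with libraries after 5 Gy running from 0.641 to 855 CPM (edgeR adjusted p = 0.394). Acta2 shared 0.326% of its 50-base stretches with transcripts of other loci, Actg1 and actin pseudogenes among them.

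Tagln encodes transgelin (SM22-alpha), an actin-binding protein that is an early marker of the contractile programme. Untreated libraries held 11.3, 14.4, 12.9 and 10.7 CPM and 5 Gy libraries 24.1, 40.8, 23.4 and 27.6 CPM. QH-II-066 libraries held 19.5, 25.0, 19.01 and 40.0 CPM, and combined libraries 30.9, 18.1, 27.8 and 25.5 CPM. Every treated library thus lay above every untreated one, a pattern found in 37 of 16101 tested genes (0.23%) and looked for after the values had been seen. The log2 fold change for 5 Gy was 1.23 ± 0.25 (edgeR adjusted p = 0.0332). It was 1.07 ± 0.25 for QH-II-066 (edgeR adjusted p = 0.546) and 1.06 ± 0.25 for the combination (edgeR adjusted p = 0.298), neither of which passed. The means of the treated groups, 25.6 ± 5.46 combined, 25.9 ± 9.80 QH-II-066 and 29.0 ± 8.09 after 5 Gy (CPM; SD, n = 4), differed from each other by less than their spread. Part of the Tagln locus is shared: 4.10% of its exon bases overlap exons of Pcsk7 on the other strand, and an antisense gene annotated there has no row of its own. Counting used no strand, so antisense fragments could not be told apart from Tagln.

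Both calls depended on the libraries included. Without the 5 libraries with a skin score above 3, the 5 Gy difference fell to 0.85 for Acta2 (edgeR adjusted p = 0.697) and to 0.95 for Tagln (edgeR adjusted p = 0.339), and without the 5 with a muscle score above 4 both values were again 0.85 and 0.95. Each of these settings leaves 5 Gy replicates 1 and 3 and all untreated libraries, so the equal values are not separate checks. The settings differ only in which drug-treated libraries remain in the shared fit. Replicates 1 and 3 held 40.3 and 34.7 CPM of Acta2 and 24.1 and 23.4 CPM of Tagln. That these lie above all untreated libraries follows from the full set, where every 5 Gy library did. Leaving out single libraries ended the Acta2 call in 11 of 16 cases, namely each untreated library, 5 Gy replicates 2 and 4, QH-II-066 replicates 2, 3 and 4 and combined replicates 1 and 3, with log2 values of 0.997 to 1.42 over the 16 cases (edgeR adjusted p of 0.0264 to 0.183). It ended the Tagln call in 6 of 16 cases, each untreated library and 5 Gy replicates 2 and 4, with log2 values of 1.02 to 1.32 (edgeR adjusted p of 0.0242 to 0.154). Fitted on untreated and 5 Gy libraries alone, Acta2 was not called either, at 1.25 (edgeR adjusted p = 0.0909), and neither gene was called with the muscle or the skin score as a covariate, where Acta2 had 0.94 and 0.95 and Tagln 1.04 and 1.08. With replicate number added to the model as a block, 1 member was called and Tagln was not, as given in the closing section.

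Myl9 encodes the regulatory light chain whose phosphorylation starts contraction. Its libraries held 13.3, 22.2, 23.0 and 21.2 CPM in untreated, 19.4, 35.0, 42.5 and 25.1 CPM in 5 Gy, 34.7, 32.6, 18.8 and 31.7 CPM in QH-II-066 and 36.3, 20.8, 22.9 and 24.3 CPM in combined tumours. The treated groups each overlapped the untreated one. The log2 difference was 0.61 ± 0.27 for 5 Gy (edgeR adjusted p = 0.279), 0.56 ± 0.27 for QH-II-066 (edgeR adjusted p = 0.546) and 0.39 ± 0.27 for the combination (edgeR adjusted p = 0.411). Myl9 had the lowest correlation of the 8 genes with skeletal muscle transcripts, -0.16.

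Myh11 encodes the smooth muscle myosin heavy chain, the motor itself and a late marker of smooth muscle. Untreated libraries held 1.77, 3.35, 2.49 and 1.51 CPM and 5 Gy libraries 4.98, 11.1, 2.97 and 11.6 CPM. The 2 highest 5 Gy libraries were those with skin and muscle transcripts, and the groups overlapped at 2.97 CPM. The log2 difference was 1.75 ± 0.57 (edgeR adjusted p = 0.121), and 0.80 without the 5 libraries with a skin score above 3. QH-II-066 libraries held 1.52, 2.10, 9.91 and 3.10 CPM, so replicate 3 stood above the other 3. That library also had the highest score for mammary epithelium genes, 2.83, with 14.9 CPM of the keratin Krt18 and 2.95 CPM of the oxytocin receptor Oxtr. Its adipocyte score was 5.98. Without it the Myh11 difference for QH-II-066 went from 0.86 ± 0.56 to -0.022. The part of mammary tissue in this value was not tested. Combined libraries held 2.06, 2.27, 2.81 and 4.61 CPM, with a log2 difference of 0.33 ± 0.56 (edgeR adjusted p = 0.751). Myh11 shared 0.340% of its 50-base stretches with the non-muscle myosins Myh9 and Myh10.

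Cnn1 encodes calponin, which binds actin and slows the myosin motor. In untreated tumours it lay at 0.134, 0.231, 0.192 and 0.106 CPM, close to the limit of detection. It reached 1.66 and 2.20 CPM in 5 Gy replicates 2 and 4, 2.06 and 2.31 CPM in QH-II-066 replicates 3 and 4 and 2.08 CPM in combined replicate 4, while 5 Gy replicate 3 and combined replicate 1 held 0.709 and 0.703 CPM. The other 5 treated libraries lay between 0.0895 and 0.200 CPM, inside or below the untreated range. Of the 5 highest libraries 4 had a muscle score above 4, and the exception was the QH-II-066 library with mammary transcripts. Combined replicate 3, also with a muscle score above 4, held the lowest Cnn1 of any library, 0.0895 CPM on 3 counts. The 2.08 CPM in combined replicate 4 rested on 14 counts. The log2 differences from untreated tumours were 2.80 ± 1.09 for 5 Gy, 2.81 ± 1.09 for QH-II-066 and 1.97 ± 1.12 for the combination (edgeR adjusted p = 0.210, 0.546 and 0.342). Without the 5 libraries with a muscle score above 4 they were 1.298, 2.25 and 1.40.

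Lmod1 encodes leiomodin, which starts actin filaments in smooth muscle. Untreated libraries held 0.434, 1.15, 0.831 and 0.422 CPM and 5 Gy libraries 0.854, 3.82, 0.878 and 2.001 CPM. The combined group ran from 0.541 to 4.32 CPM, its highest value in replicate 4, and the QH-II-066 group from 0.494 to 1.21 CPM. All groups overlapped. The log2 difference for 5 Gy was 1.41 ± 0.66 (edgeR adjusted p = 0.325), and 0.29 without the 5 libraries with a skin score above 3.

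Tpm2 encodes beta-tropomyosin, which lies along actin filaments in smooth muscle and in skeletal muscle alike. Untreated libraries held 105, 237, 344 and 325 counts, or 3.51 to 11.4 CPM. The 5 Gy libraries held 15.02, 234, 12.7 and 162 CPM, the QH-II-066 libraries 7.61, 10.4, 12.9 and 128 CPM and the combined libraries 17.3, 23.6, 66.8 and 119 CPM. The 5 libraries above 60 CPM were exactly the 5 with a muscle score above 4, and the muscle enzyme creatine kinase (Ckm) was also highest there, at 53.5 to 240 CPM against at most 11.4 CPM elsewhere. The log2 difference was 3.59 ± 1.17 for 5 Gy, 2.18 ± 1.11 for QH-II-066 and 2.68 ± 1.13 for the combination (edgeR adjusted p = 0.128, 0.546 and 0.299). Without those 5 libraries the same differences were 0.66, 0.23 and 1.22. Without QH-II-066 replicate 4 alone, the QH-II-066 difference was 0.23.

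**Figure D2:**
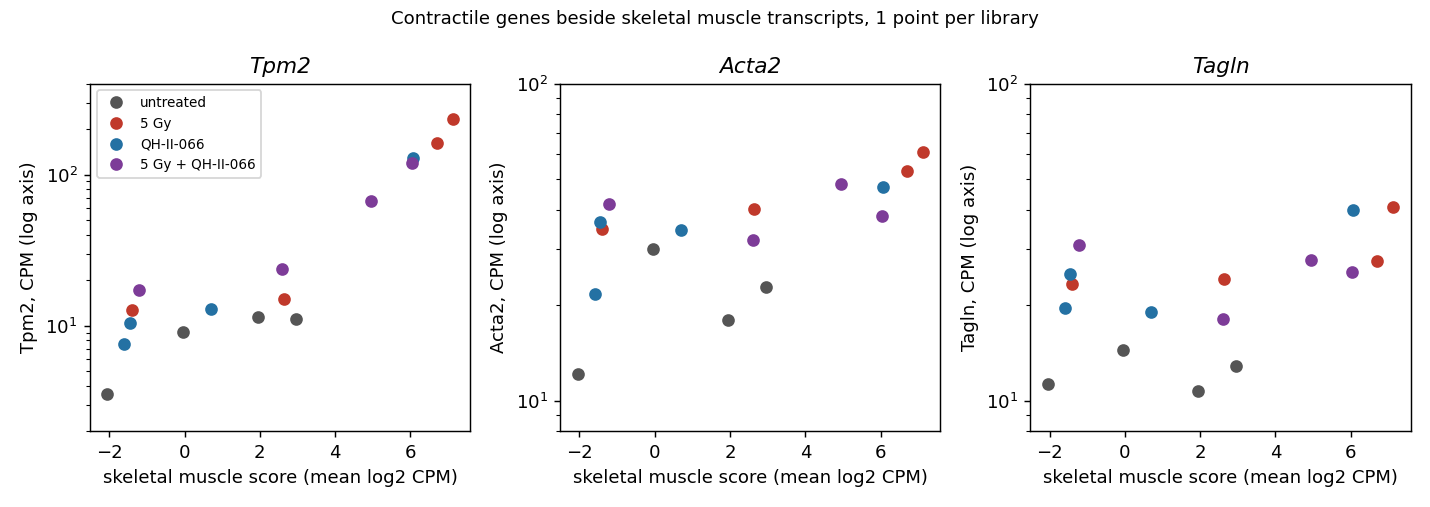
Levels of Tpm2, Acta2 and Tagln (CPM, log axis) against the skeletal muscle score of each library, the mean log2 CPM of the muscle genes; points are libraries, coloured by group. The highest Tpm2 values lie at the 5 scores above 4, and Acta2 and Tagln show a wider scatter.

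The libraries in which each member was high can be set beside the scores directly. Over the 16 libraries, deviations of log2 CPM from the group mean correlated with those of the skeletal muscle score at 0.93 (Pearson r) for Tpm2, 0.62 for Lmod1, 0.60 for Acta2, 0.57 for Myh11, 0.50 for Tagln, 0.46 for Cnn1, 0.12 for Actg2 and -0.16 for Myl9. With the skin score they were 0.73 for Tpm2, 0.70 for Lmod1, 0.63 for Myh11 and 0.47 for Cnn1. Acta2 had 0.31, Tagln 0.22, Actg2 0.15 and Myl9 -0.18. With the score of 10 pericyte genes, such as the vessel wall gene Rgs5, the values were 0.36 for Tagln, 0.18 for Acta2 and between -0.16 and 0.07 for the other 6. With myofibroblast and matrix genes Tagln had 0.53, Acta2 0.23 and the other 6 between -0.34 and 0.31. With fibroblast genes these were 0.40, 0.15 and between -0.32 and 0.38. Myh11 had its highest value among the tissue scores with mammary epithelium, 0.69, a score in which QH-II-066 replicate 3 stood highest. These are descriptions of libraries that share depth and tissue content within each point. The part of skeletal muscle, skin or mammary tissue in the members' differences was not tested.

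Pairs of members varied together to unequal degrees. Acta2 and Tagln were closest, at 0.742, followed by Myh11 and Lmod1 at 0.738, and Myh11 and Myl9 were furthest apart at -0.408. Libraries also differed in how level varied with gene length. The slope, in log2 CPM per doubling of length, ran from -0.248 in combined replicate 1 to 0.228 in untreated replicate 3. Myl9 has the shortest summed exons of the members and Myh11 the longest. The part of gene length in these correlations was not tested. The genes most like Acta2 over the 16 libraries were Chst11 (0.846), Msrb3 (0.838), Fam160a2 (0.823), Anpep (0.823) and Plec (0.797). The genes most like Tpm2 were Casq1 (0.973), Des (0.971), Mylpf (0.964), Tnni2 (0.960) and Neb (0.955), of which Casq1, Mylpf, Tnni2 and Neb encode skeletal muscle proteins. Those most like Myh11 were Tcaim (0.917), Acsl1 (0.901), Myo18a (0.894), Dhx32 (0.889) and Svil (0.888).

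**Figure D3:**
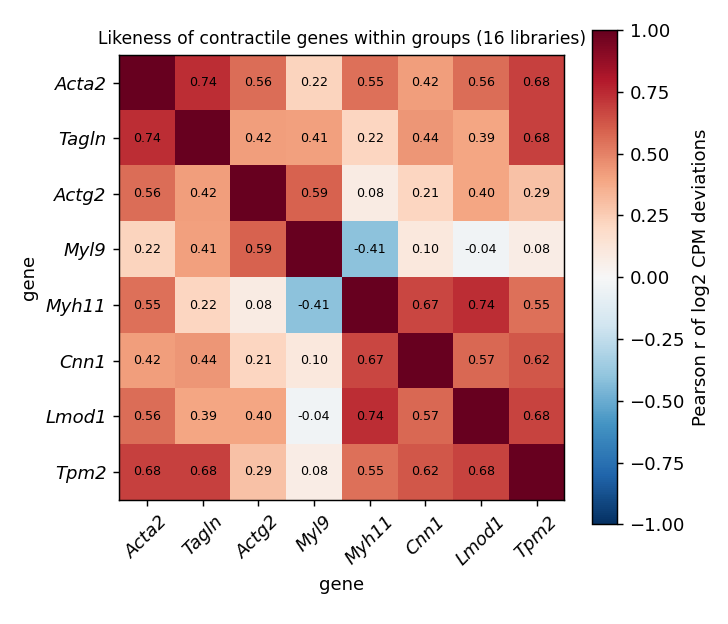
Pearson r between contractile genes, computed from log2 CPM deviations from the group means over 16 libraries; red is positive and blue negative. Acta2 and Tagln share the highest value, 0.74, and Myh11 and Myl9 the lowest, -0.41.

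Counts over the group leave out Cnn1, which entered the test through treated libraries. For 5 Gy against untreated tumours all 7 other log2 differences were above 0, with a median of 1.23 beside -0.08 over all tested genes. At an unadjusted p under 0.05 there were 6 of 7, beside 15.1% of all tested genes, and groups without overlap, higher after 5 Gy, were found for Acta2, Tagln and Tpm2, beside 5.97% of all tested genes. DESeq2 called 4 members, with Myh11 at 1.77 (adjusted p = 0.0247) and Tpm2 at 3.62 (adjusted p = 0.0111) added, beside 7.61% of the genes to which it gave an adjusted p. Likewise limma-voom called 3, beside 4.91%. For QH-II-066 the median was 0.75 beside 0.01 over all genes, with 6 of 7 above 0. There 3 members had an unadjusted p under 0.05, beside 8.17% of all genes. EdgeR called 0 members, DESeq2 1 (Tagln), beside 0.0995% of genes, and limma-voom 3 (Acta2, Tagln and Myl9), beside 28.7%. Tagln was also the member without overlap, beside 1.37% of all genes. For the combination the median was 0.95 beside 0.00 over all genes, with 7 of 7 above 0. Unadjusted p was under 0.05 for 3 members, beside 16.2% of all genes, and Acta2, Tagln and Tpm2 did not overlap with untreated tumours, beside 2.53%. Here edgeR and limma-voom called 0 members, beside 0% of genes, and DESeq2 called 2, Acta2 and Tagln, beside 1.31%. These 3 comparisons share the untreated libraries, so their directions are not separate evidence.

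**Figure D4:**
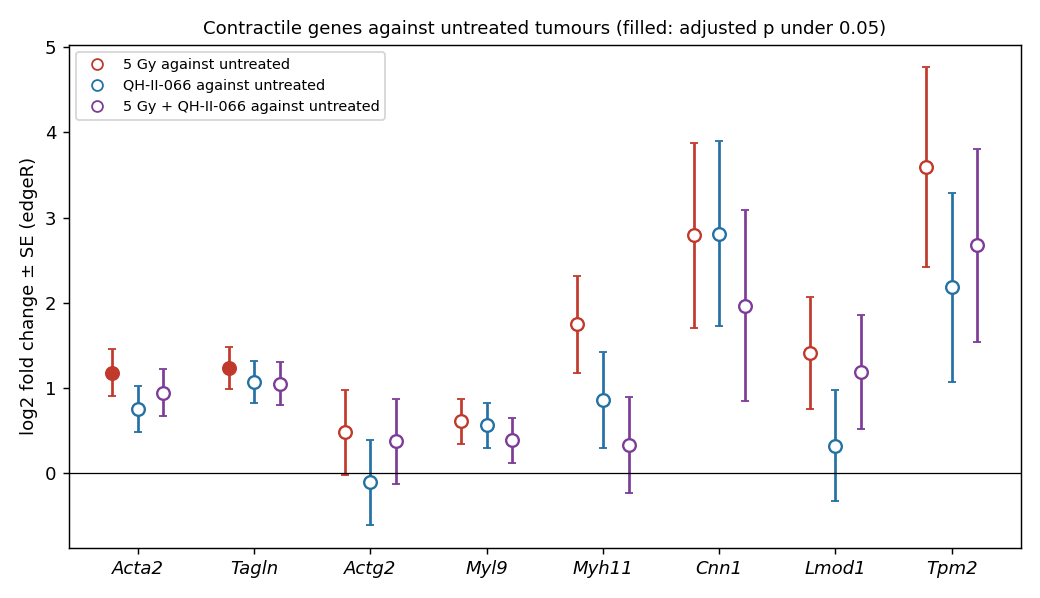
Log2 fold change of each contractile gene against untreated tumours in the 3 treated groups, with SE bars; filled points passed an adjusted p of 0.05 (edgeR). Acta2 at 1.18 and Tagln at 1.23 after 5 Gy are filled, and Tpm2 and Cnn1 have the largest values and the widest bars.

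The drug added to radiation gave no called member. Against 5 Gy alone, combined tumours had log2 differences from -1.41 ± 0.57 for Myh11 (edgeR adjusted p = 0.218) to -0.11 ± 0.50 for Actg2. Leaving out Cnn1, the median was -0.22, with 1 of 7 members at an unadjusted p under 0.05, beside 19.5% of all genes. By edgeR, DESeq2 and limma-voom 0 of 8 were called, beside 0%, 0.765% and 0.522% of genes. Against QH-II-066 alone, the differences ran from -0.85 for Cnn1 to 0.87 for Lmod1. Of the 7 members other than Cnn1, 4 were above 0 and 0 had an unadjusted p under 0.05, beside 3.65% of all genes. There too 0 of 8 were called by the 3 tools, beside 0%, 0.298% and 0% of genes.

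With both irradiated groups set against both unirradiated ones, Acta2 differed by 0.69 ± 0.19 (edgeR adjusted p = 0.0856) and Tagln by 0.61 ± 0.17 (edgeR adjusted p = 0.0934). No member passed by edgeR, beside 1.4% of all genes, 4 had an unadjusted p under 0.05, beside 11.4% of all genes, and DESeq2 called Acta2 and Tagln, beside 4.97% of genes. By limma-voom 0 members were called, beside 0.0373%. The interaction asks whether the drug's difference changed with radiation. Its values by edgeR were below 0 for all 7 members other than Cnn1, Actg2 hardly so at -0.0047. Tagln had -1.25 ± 0.35 (adjusted p = 0.481) and Acta2 -0.99 ± 0.38 (adjusted p = 0.595), and 0 of 8 were called beside 0% of all genes. The interaction reuses the untreated libraries of the earlier differences, so its direction is not separate evidence either. At an unadjusted p under 0.05 there were 3 of the 7 members other than Cnn1, beside 6.96% of all genes. DESeq2 called 0, beside 0.367% of genes, and limma-voom called Tagln, at -1.46 (adjusted p = 0.0330), beside 3.06%.

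No gene of the known regulators of the contractile apparatus passed the test for 5 Gy. Counts for 5 Gy in this and the following lists stand beside 1.25% of all tested genes called higher. At an unadjusted p under 0.05 the share was 15.1%. Of 5 tested genes of SRF and its partners edgeR called 0 (1 at an unadjusted p under 0.05), with a median log2 difference of 0.07. Srf itself had 84.4 ± 14.6 CPM in untreated and 75.1 ± 15.8 CPM in 5 Gy tumours (SD, n = 4), a difference of -0.17 ± 0.22 (edgeR adjusted p = 0.747). Fhl2, a LIM-domain partner of SRF, had the highest value of these genes, 1.10 ± 0.42 (edgeR adjusted p = 0.204), and Myocd, which encodes myocardin, did not pass the filter on low counts. Of 10 genes of light chain kinase and phosphatase signalling 0 were called (0 at an unadjusted p under 0.05), with a median of -0.02. Mylk, the kinase that phosphorylates the light chain, had a difference of -0.06 ± 0.19 (edgeR adjusted p = 0.910), and Rock1, which restrains the phosphatase, one of 0.10.

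Other thin filament and dense body genes also had 0 of 16 called (5 at an unadjusted p under 0.05, beside 15.1% of all tested genes), with a median of 0.15. Smtn, Cald1 and Tpm1, which encode smoothelin, caldesmon and alpha-tropomyosin, had differences of 0.12 ± 0.09, 0.31 ± 0.17 and 0.19 ± 0.16. Values were larger for genes that skeletal muscle also uses, Des at 2.70 ± 0.98, Pdlim3 at 5.10 ± 1.65 and Synpo2 at 2.83 ± 0.79 (edgeR adjusted p = 0.175, 0.123 and 0.0747). Tns1, a focal adhesion protein, had 1.66 ± 0.43 (edgeR adjusted p = 0.0618).

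Of 8 tested smooth muscle receptors and channels, 2 rose after 5 Gy, beside 1.25% of all tested genes. Agtr1a, the angiotensin II receptor, averaged 0.648 ± 0.211 CPM in untreated and 2.88 ± 0.970 CPM in 5 Gy tumours (SD, n = 4), a rise of 2.15 ± 0.48 on the log2 scale (edgeR adjusted p = 0.0429). Npr1, the receptor for atrial natriuretic peptide, went from 2.01 ± 0.635 to 5.03 ± 1.07 CPM, or 1.32 ± 0.30 on the log2 scale (edgeR adjusted p = 0.0467). Ednra, the endothelin receptor of smooth muscle, had 1.07 ± 0.31 (edgeR adjusted p = 0.0887). The median of the 8 was 0.92. Neither call held without the 5 libraries with a skin score above 3, where Agtr1a had 2.26 and Npr1 1.04 (edgeR adjusted p = 0.177 and 0.578), nor without the 5 with a muscle score above 4, where the values were again 2.26 and 1.04 (edgeR adjusted p = 0.375 and 0.761). Both settings keep the same 5 Gy and untreated libraries, so the equal values are not separate checks.

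TGF-beta is the signal best known for turning fibroblasts into myofibroblasts. Of 11 ligands, receptors and targets 0 were called after 5 Gy (2 at an unadjusted p under 0.05, beside 15.1% of all tested genes), with a median of 0.09. Tgfb1 had a difference of 0.24 ± 0.16, the receptor Tgfbr2 0.62 ± 0.18 (edgeR adjusted p = 0.0842) and the target Ccn2 0.71 ± 0.29 (edgeR adjusted p = 0.232).

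Of 11 genes of activated myofibroblasts and their matrix 4 rose after 5 Gy, beside 1.25% of all tested genes, with a median log2 difference of 1.93 and all 11 above 0. Postn, the matrix protein periostin, went from 44.7 ± 10.9 to 198 ± 108 CPM (SD, n = 4; log2 fold change 2.14 ± 0.42, edgeR adjusted p = 0.0328). Col12a1, a fibril-associated collagen, rose by 1.98 ± 0.41 (edgeR adjusted p = 0.0386) and Lox, which cross-links collagen, by 2.28 ± 0.48 (edgeR adjusted p = 0.0386). Aspn, a small proteoglycan of the matrix and the last of the 4, rose by 1.83 ± 0.41 (edgeR adjusted p = 0.0429). Of these 4, Lox alone was called without the 5 libraries with a skin score above 3 and 0 without the 5 with a muscle score above 4, while the values were 2.42 for Postn, 2.405 for Col12a1, 2.75 for Lox and 2.04 for Aspn in both settings. The values are equal because both settings keep the same 5 Gy and untreated libraries. The calls differed only through the drug-treated libraries left in the shared fit. The edgeR adjusted p ran from 0.0496 to 0.134 without the first set and from 0.195 to 0.342 without the second.

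Fibroblast genes rose in 8 of 10 cases, beside 1.25% of all tested genes, with Col1a1 at 2.33 ± 0.38 (edgeR adjusted p = 0.0227). Their summed level went from 540 to 903 CPM in untreated libraries to 2015 to 4134 CPM after 5 Gy. The ranges did not overlap. Without the 5 skin-bearing libraries 4 of the 10 were called and without the 5 muscle-bearing ones 0, with a median of 2.38 in both settings beside 2.43 over all libraries, and Col1a1 had 2.50 in both (edgeR adjusted p = 0.0496 and 0.195). Again the same 5 Gy and untreated libraries remain in both settings, so the difference in calls does not separate skin from muscle. The part of fibroblast content in the Acta2 and Tagln differences was not tested.

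**Figure D5:**
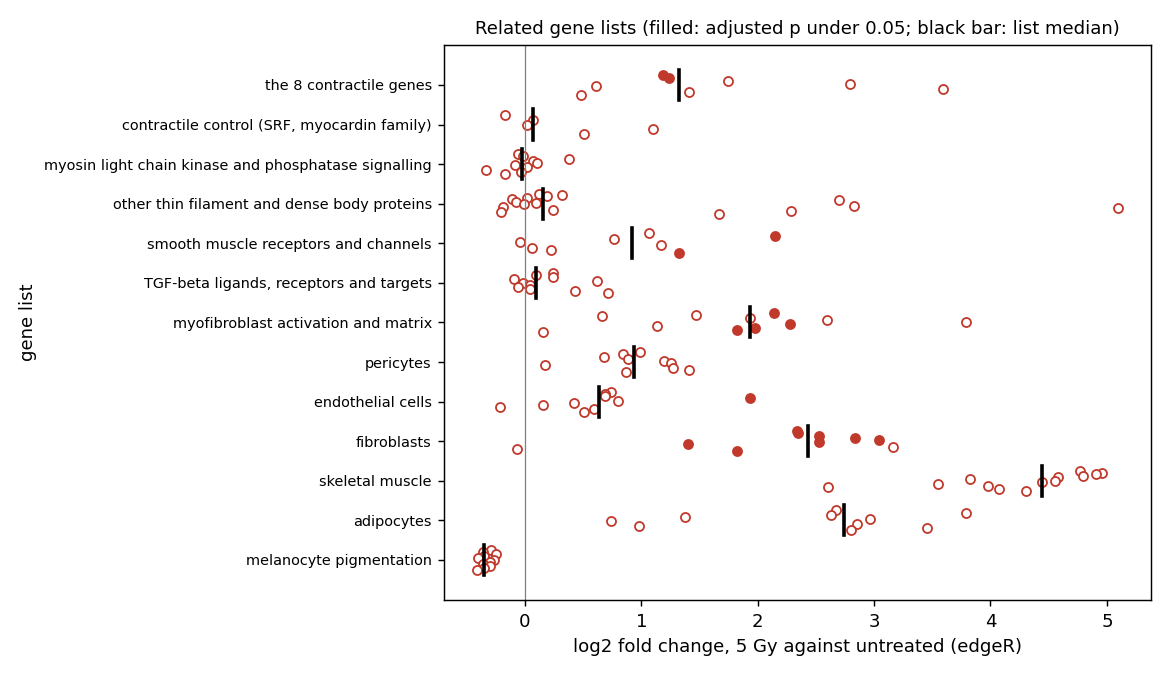
Log2 fold changes of related gene lists for 5 Gy against untreated tumours; points are tested genes, filled where the adjusted p was under 0.05 (edgeR), and black bars are list medians. The median is 2.43 for fibroblasts and 1.93 for myofibroblast and matrix genes, but 0.07 for SRF and its cofactors and 0.09 for the TGF-beta genes.

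Pericyte genes were above 0 in 10 of 10 cases after 5 Gy, with a median of 0.93, and 0 were called (7 at an unadjusted p under 0.05, beside 15.1% of all tested genes). Their summed level ran from 172 to 258 CPM in untreated libraries and from 224 to 376 CPM after 5 Gy. Rgs5 had 0.98 ± 0.26 and Pdgfrb, the receptor that keeps pericytes on vessels, 0.84 ± 0.24 (edgeR adjusted p = 0.0619 and 0.0789), while Ndufa4l2 had 1.41 ± 0.35 (edgeR adjusted p = 0.0553). One of 10 endothelial genes, the angiopoietin receptor Tek, was called higher, at 1.94, and the median was 0.64. Tek had 1.68 without either set of 5 libraries, which leaves the same 5 Gy and untreated libraries, and was not called (edgeR adjusted p = 0.357 and 0.564). For other host tissues the medians were 4.44 over 13 tested skeletal muscle genes, 11.72 over 12 skin genes, 1.45 over 5 mammary genes and 2.74 over 10 adipocyte genes. In these lists 0 genes were called, and 6, 12, 0 and 1 had an unadjusted p under 0.05. The skin keratin Krt5 was at 0.334 CPM or less in the untreated libraries and passed the filter on low counts through other libraries. After 5 Gy it held 800 and 573 CPM in replicates 2 and 4, but 0.142 and 0.101 CPM in replicates 1 and 3. The p-values of such skin genes are therefore no separate support. List medians without the 5 libraries with a skin score above 3 were 0.06 for skeletal muscle, 0 for skin, 1.11 for mammary and 2.11 for adipocyte genes. The pigment cell genes were below 0 in 11 of 11 cases, with a median of -0.35, 0 called and 5 at an unadjusted p under 0.05.

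For QH-II-066 and for the combination against untreated tumours, 0 genes were called by edgeR in every one of these lists. At an unadjusted p under 0.05 there were 5 and 7 of the 11 myofibroblast and matrix genes, 4 and 9 of the 10 fibroblast genes and 1 and 2 of the 10 pericyte genes. The shares over all tested genes were 8.17% and 16.2%, to which the pericyte counts are close. Medians of the myofibroblast and matrix genes were 0.86 and 0.90, those of the fibroblast genes 0.73 and 1.31, and those of the pericyte genes 0.13 and 0.18. The kinase and phosphatase genes had medians of -0.31 in both comparisons. Adipocyte genes had a median of 3.44 for QH-II-066, with summed levels of 78.2 to 1319 CPM against 29.7 to 149 CPM in untreated tumours. An unadjusted p under 0.05 was found for 10 of 10 adipocyte genes, beside 8.17% of all tested genes. For the combination their median was 0.56 and 0 of 10 had such a p, beside 16.2%.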

How the data were processed

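RNA of 16 tumours' libraries was prepared by transcriptome capture and sequenced on an Illumina HiSeq2500, per the labels' protocols. The submitters' processing notes name STAR 2.4.1a, featureCounts, edgeR and mm10. Read pairs were counted over exons by featureCounts 1.6.0 with no strand option, per the file headers. The deposited values are whole-number counts per gene, not normalized.

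Genes with low counts were removed (filterByExpr), leaving 16101 of 46078 genes. Libraries were scaled by TMM, and group means over all 16 libraries were compared, with no batch term since the labels name no batch, by edgeR's quasi-likelihood test (edgeR 4.0.16, R 4.3.3; robust, two-sided), with Benjamini-Hochberg adjustment over all tested genes and a threshold of 0.05. SE was derived from the test's F. Levels are CPM with TMM scaling. Scores are means of log2 CPM with a prior count of 2. Likeness is Pearson r of deviations from group means. Scripts were tested on simulated data.

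Named genes were the 8 members, up to 3 genes with the smallest p for 5 Gy per related list, a set of reference genes, and the 5 genes most like Acta2, Myh11 and Tpm2 with mean log2 CPM of at least 1. Aspn, Tek and the tissue markers of single libraries were named after their values were seen. Members and lists were chosen with earlier results of these data known. Correlations did not settle whether same-numbered libraries of different groups pair, and the main model has no replicate block. Alternatives included DESeq2 1.42.0, limma-voom (limma 3.58.1), other scalings and filters, tissue scores as covariates and leaving out libraries. The sets of 5 libraries with skin or muscle scores above 3 and 4 were chosen after seeing the data. Gene overlaps used GENCODE annotation and promoters came from RefSeq.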

Additional observations from a re-analysis of the deposited data

Results flagged for a closer look

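Tpm2 in QH-II-066 replicate 4 stood far from the other libraries of its group, at 128 CPM against 7.61 to 12.9 CPM. It was the 1 case in 32 groups of 4 libraries (8 genes in 4 groups) in which the gap to the nearest library exceeded Dixon's 95% critical value. Chance flags about 1 in 20 groups. The same library had a skeletal muscle score of 6.06 and 124 CPM of Ckm, against at most 1.86 CPM of Ckm in the other 3. The part of muscle tissue in the Tpm2 value was not tested.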

How the results depend on the processing

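Of the single-gene values, 550 kept direction and side of the threshold under alternatives other than leaving out 1 library, 12 lost the threshold, 12 gained it and 42 changed sign. With 1 library left out, 855 kept both, 17 lost the threshold and 24 changed sign. The cause of these changes was not tested. Where libraries were left out, the fit had both fewer samples and a different tissue content. The depth limits Cnn1 most, with 3 to 87 counts per library.

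For 5 Gy against untreated tumours (2 members and 203 genes called), members called were 4 by DESeq2, 1 within the compared groups alone, 1 with the replicate block, and 0 with the muscle covariate, the skin covariate, without the libraries with skin transcripts (score above 0), without the 5 with a skin score above 3 and without the 5 with a muscle score above 4. Genes called were 1224 by DESeq2 (1180 higher), 790 by limma-voom, 93 within the compared groups, 2 with the muscle covariate, 11 with the skin covariate, 20 and 20 in the 2 settings without skin libraries and 0 without the muscle libraries. With 1 library left out, members called ranged from 0 to 2 and genes called from 0 to 727. For QH-II-066, DESeq2 called 1 member and 16 genes and limma-voom 3 and 4622, against 0 in the main test. For the combination against untreated, DESeq2 called 2 members and 206 genes. Against 5 Gy, DESeq2 called 123 genes and limma-voom 84, and against QH-II-066, DESeq2 called 48 and the skin covariate 1. For irradiated against unirradiated (226 genes), DESeq2 called 2 members and 799 genes, limma-voom 6 genes, and 0 genes were called without the filter, with the muscle covariate, with the skin covariate and without either set of 5 libraries. With 1 library left out this count ranged from 0 to 488. For the interaction, limma-voom called 1 member and 492 genes, DESeq2 59 genes and the skin covariate 1.

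Whether the replicate numbers pair the libraries was not settled. Same-numbered libraries of different groups correlated at -0.63 to 0.55 (median 0.098), and 12 of 24 such pairs were above 0.1. Other-numbered libraries correlated at -0.72 to 0.73 (median -0.075), and 26 of 72 were above 0.1. With the replicate block, Tagln had 1.22 (adjusted p = 0.0502), genes called for 5 Gy were 154 and for irradiated tumours 157, Actg2 for QH-II-066 was 0.072 and Tagln for the combination against QH-II-066 0.031. The setting without libraries of skin score above 0 left no combined library, so it gave only the 5 Gy and QH-II-066 values.

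Signs changed as follows. By limma-voom, Actg2 for QH-II-066 was 0.26 and Cnn1 for the combination -0.20. For the combination against untreated, Myh11 was -0.078 with the muscle covariate, -0.78 with the skin covariate, -0.14 without skin libraries and -0.073 without muscle libraries (each the set of 5). In the same comparison Lmod1 was -0.50, -0.38 and -0.23 under the last 3 of these settings, and Tpm2 -0.10 with the skin covariate. For the combination against 5 Gy without skin libraries, Acta2 was 0.16, Tagln 0.39, Cnn1 0.77, Myl9 0.24 and Tpm2 0.33, and without muscle libraries Tagln was 0.049, Cnn1 0.10 and Tpm2 0.56. For the combination against QH-II-066 with the skin covariate, Acta2 was -0.053, Myl9 0.0075, Tpm2 -2.17 and Lmod1 -0.74. Without skin libraries Tagln was 0.25, Myl9 0.30, Tpm2 -1.21 and Lmod1 -0.71, and without muscle libraries Tagln was 0.21 and Lmod1 -0.60. For irradiated against unirradiated with the skin covariate, Myh11 was -0.40, Cnn1 -0.36, Tpm2 -0.77 and Lmod1 -0.36. Without skin libraries Myh11 was -0.10, Tpm2 -0.28 and Lmod1 -0.21, and without muscle libraries Myh11 was -0.12 and Lmod1 -0.15. For the interaction, Actg2 was 0.067 without skin libraries and 0.026 without muscle libraries, where Tpm2 was 0.33.

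With 1 library left out, signs changed within these ranges. For QH-II-066, Myh11 ran from -0.022 to 1.14 and Actg2 from -0.38 to 0.43. For the combination against 5 Gy, Tagln ran from -0.29 to 0.031, Lmod1 from -1.12 to 0.38 and Actg2 from -0.37 to 0.064. For the combination against QH-II-066, Tagln ran from -0.14 to 0.27, Myh11 from -0.81 to 0.36, Tpm2 from -0.15 to 2.45 and Lmod1 from -0.030 to 1.19. For the interaction, Lmod1 ran from -1.44 to 0.057 and Actg2 from -0.54 to 0.27.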
